A study of Mus musculus with 20 samples.

Results

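Insl3, the relaxin family receptors Rxfp1 and Rxfp2, and Jak3 were followed as 4 of the 23457 genes counted in mouse ovary. They were taken by name from each library's count table. Insl3 was selected on its level in the 4 groups of these same libraries, its relatives were named with it, and Jak3 was added because its exons overlap those of Insl3, so the members' values are given as a description and without a test. Each of the 20 libraries is the ovary RNA of 1 female of the Ames dwarf strain. There are 4 groups of 5 mice, the normal (N/df) genotype at 6 or 22 months of age and the dwarf (df/df) genotype at the same ages. Every group carries the df allele, in 1 copy in normal mice and on both chromosomes in dwarf mice. The df mutation lies in a gene needed for pituitary development, and dwarf mice lack growth hormone, prolactin and thyroid-stimulating hormone throughout life, so the ovary is not the only organ affected. In RNA of a whole organ, fewer cells of a type and less RNA per cell cannot be told apart.

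Insl3 is a small peptide hormone of the insulin and relaxin family, made by Leydig cells of the testis and by theca cells, the androgen-making layer around growing follicles. It acts through the G protein-coupled receptor Rxfp2 and raises cyclic AMP, while Rxfp1 is the receptor for relaxin, which remodels matrix in reproductive tissues. Jak3 is a tyrosine kinase of blood cells that carries the signal of cytokine receptors built with the common gamma chain, and it has no known part in relaxin signalling.

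The genes were placed with the mm10 annotation deposited with the study. Insl3 lies at chr8:71689252-71690577 on the plus strand with 2 exons, wholly inside the span of Jak3, which runs from chr8:71676383-71690577 on the same strand. The second Insl3 exon, of 406 bases, has the same coordinates as the last exon of the longer Jak3 transcript, and it lies beyond that transcript's stop codon. It makes up 69.2% of the exon bases of Insl3 and 9.94% of those of Jak3. By default HTSeq gives a read that touches an exon shared by 2 genes to neither, even where it also covers an exon of 1 gene alone. Under that default the Insl3 counts would rest on reads of its own first exon of 181 bases (chr8:71689252-71689432). Reads that run on into the shared exon would be left out, and the counts would understate its level. The counting mode is not given in the sources used here. Strand does not separate the genes. The row of reads shared by genes held 1.14 to 1.54% of the counts in each library. No exon of another gene overlaps Rxfp1 (chr3:79644716-79737794, minus strand, 18 exons) or Rxfp2 (chr5:150018675-150082186, plus strand, 18 exons).

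**Figure D1:**
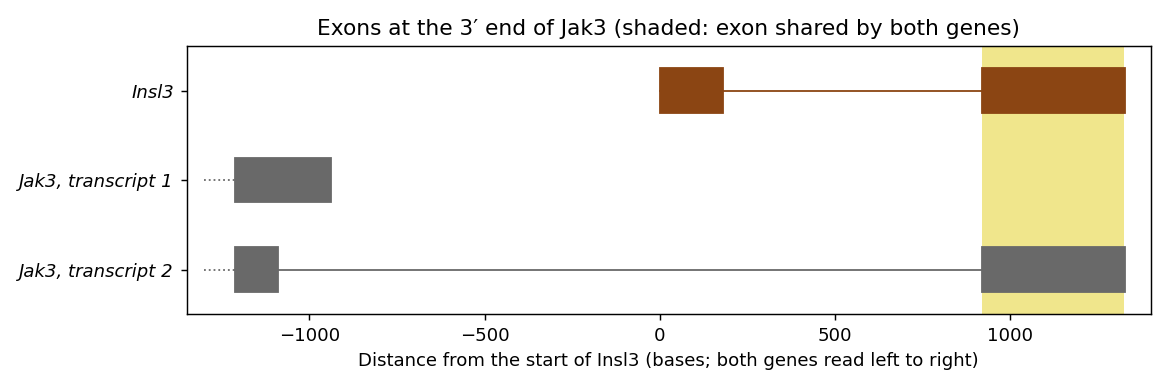
Exons of Insl3 and of the 3′ end of 2 Jak3 transcripts, by distance in bases from the start of Insl3 (horizontal axis). Boxes are exons, lines are introns, dotted lines lead to the Jak3 exons further left, and the shaded exon of 406 bases belongs to both genes, whereas the first Insl3 exon of 181 bases lies in a Jak3 intron.

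The stretch that sets Insl3 apart from Jak3, the coding part of its first exon at chr8:71689258-71689432 (GRCm38, plus strand), is shown with its start codon in capitals.
Insl3 exon 1: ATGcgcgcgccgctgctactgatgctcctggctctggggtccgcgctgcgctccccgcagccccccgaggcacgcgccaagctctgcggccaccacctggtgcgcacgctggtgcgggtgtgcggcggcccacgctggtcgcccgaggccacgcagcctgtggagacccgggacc

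The Insl3 promoter sits within the last Jak3 intron, and its sequence is shown because Insl3 and Jak3 differed in level while sharing this piece of chromosome. RefSeq (GRCm38.p6) gave it for chr8:71689002-71689301, from 250 bases before to 50 bases after the start. The capitals mark 3 motifs on either strand. The motif AAGGTC is the core of the sequence bound by Nr5a1, the steroidogenic regulator of gonad and adrenal. The motif AAGGCC is a variant of that core, and the motif TATAA is the TATA box.
Insl3 promoter: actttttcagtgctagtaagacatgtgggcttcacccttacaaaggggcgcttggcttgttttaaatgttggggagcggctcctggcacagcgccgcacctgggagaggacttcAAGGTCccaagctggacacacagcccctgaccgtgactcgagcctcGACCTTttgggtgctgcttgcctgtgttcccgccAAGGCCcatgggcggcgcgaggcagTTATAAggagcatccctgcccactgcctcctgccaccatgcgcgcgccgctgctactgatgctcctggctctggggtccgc

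Counted from the gene's start, AAGGTC stood at -136 on the gene's strand and at -90 on the opposite strand. The variant AAGGCC stood at -56, and TATAA at -30 and, overlapping it on the opposite strand, at -31. Among 32851 RefSeq promoters of this length, 12.3% held AAGGTC at least once on either strand and 0.977% held it in 2 or more places. The share with AAGGCC was 16.5%, that with TATAA was 24.9%, and that with AAGGTC in 2 places and TATAA besides was 0.350%. This last combination is the one that the Insl3 promoter holds, so nothing is read from its small share. The table held promoters of 3 of the 4 members, and none of these motifs was in the windows of Rxfp2 and Jak3. Each match is a description of the letters, not a tested binding site.

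Libraries held 1365640 to 36068284 counts over genes, and levels are given as CPM, each gene's count scaled to that total. The shallowest was normal 6-month replicate 3, where 1 count is worth more than in any other library and 3 counts, the limit that a count of 0 allows, equal 2.20 CPM. Normal 6-month replicate 2 was low in ovarian markers and high in oviduct markers: Nr5a1 was at 6.19 CPM, and the 10 oviduct genes summed to 7016 CPM. That replicate, normal 6-month replicate 3 and normal 22-month replicate 3, which had the highest sum of T and NK cell genes at 249 CPM, stood apart from the rest, and results that rest on them are given with and without them. Dwarf 22-month replicates 1 and 4 differed from each other by a chi-square per degree of freedom of 2.46, against 12.2 or more for every other pair of a group, which is above sampling noise, and they were kept as 2 mice.

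Insl3 was present at a trace in normal ovaries and was a well-measured transcript in young dwarf ovaries. In normal mice at 6 months it was 0.770, 0.510, 2.93, 0.490 and 0.431 CPM in replicates 1 to 5, and in normal mice at 22 months it was 0.148, 0.601, 0.590, 1.16 and 0.829 CPM. These 10 values rest on 3 to 12 counts each, and the highest, 2.93 CPM, is 4 counts in the shallowest library with a 95% Wilson interval of 1.14 to 7.53 CPM, an interval for counting error only. In dwarf mice at 6 months Insl3 was 60.0, 61.7, 104.8, 34.4 and 74.9 CPM, from 489 to 2703 counts. All 5 young dwarf libraries lay above all 15 others.

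In dwarf mice at 22 months Insl3 was 7.46, 0.988, 24.0, 16.3 and 26.1 CPM, from 10 to 323 counts. Of these 5, 4 lay between the young dwarf libraries and the normal ones, and replicate 2 fell among the normal mice. With a 95% Wilson interval of 0.537 to 1.82 CPM, replicate 2 could not be told from the normal libraries at this depth.

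The order of the means was dwarf at 6 months (67.2 ± 25.7 CPM, SD, n = 5), dwarf at 22 months (15.0 ± 10.7), normal at 6 months (1.03 ± 1.07) and normal at 22 months (0.665 ± 0.369). The last pair did not differ beyond their spread. Fitted with edgeR over all 20 libraries, the dwarf ovary was higher than the normal one by 6.68 ± 0.79 (log2 fold change ± SE) at 6 months, about 102-fold, and by 4.52 ± 0.71 at 22 months. From 6 to 22 months the log2 fold change was -2.25 ± 0.59 in dwarf mice and -0.10 ± 0.81 in normal mice, a difference in age change of -2.16 ± 0.99 between genotypes. The group ranges of Insl3 did not overlap between genotypes at 6 months or between ages in dwarf mice. They overlapped between genotypes at 22 months, through dwarf replicate 2, and between ages in normal mice.

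**Figure D2:**
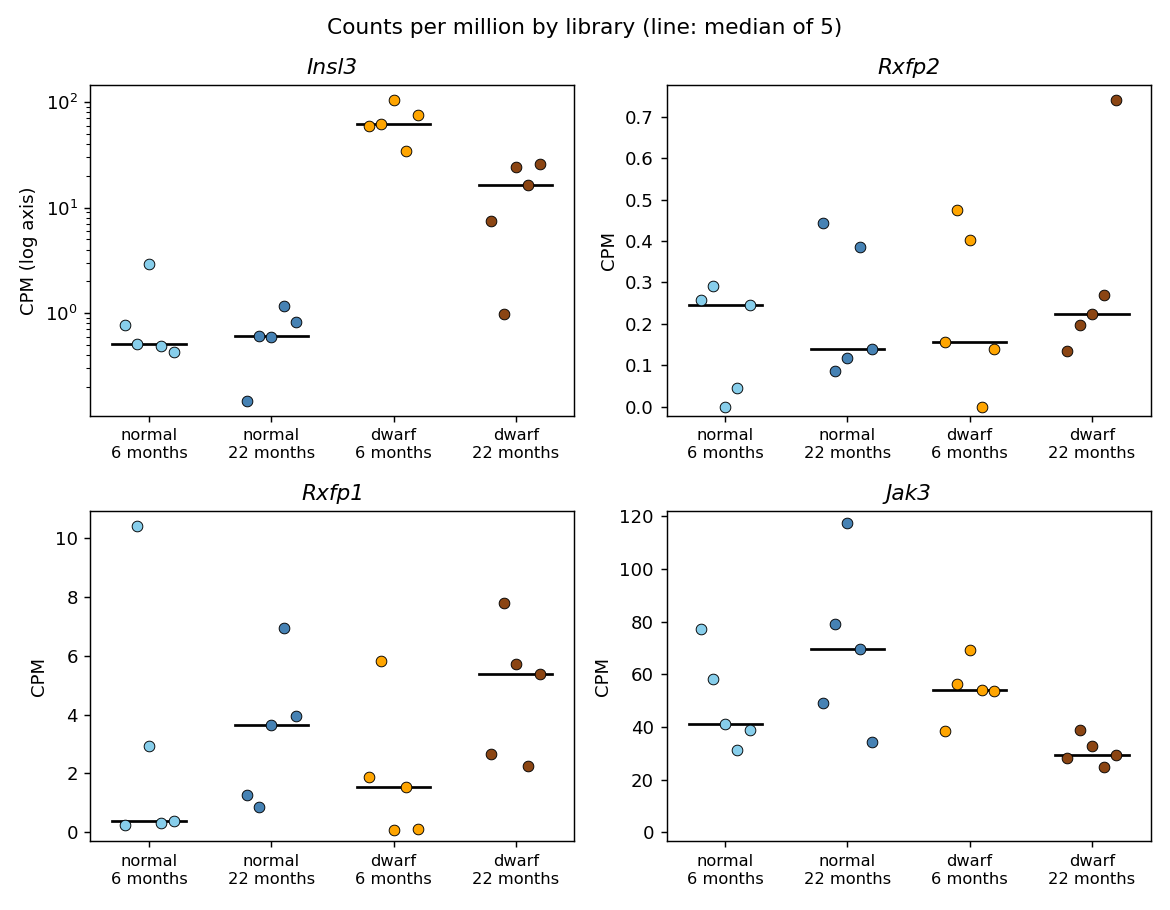
CPM of Insl3 (log axis), Rxfp2, Rxfp1 and Jak3 (linear axes) in each of 20 libraries, 5 per group, with points in replicate order and a line at the median. The 5 young dwarf libraries lie above all others for Insl3, Rxfp2 stays at or below 0.741 CPM, and the ranges of Rxfp1 and Jak3 overlap in every comparison.

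Of the 16099 genes that passed the edgeR filter on low counts, the share whose group ranges did not overlap was 5.88% between genotypes at 6 months, 22.1% between ages in dwarf mice, 7.24% between genotypes at 22 months and 2.39% between ages in normal mice. Of the 3 members that passed, Insl3 was the 1 member with separate ranges, in the first 2 of these comparisons. That separation is part of why Insl3 was chosen, so nothing is read from it. Rxfp2 did not pass the filter.

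The height of Insl3 was set against genes of the cells that make it. Cyp17a1, the enzyme of theca and Leydig cells that commits steroids to androgens, was 235, 219, 608, 78.7 and 300 CPM in young dwarf libraries and 81.7, 3.20, 125, 610 and 198 CPM in young normal ones. The groups overlapped, and normal replicate 4 matched the highest dwarf library for Cyp17a1 while holding 0.490 CPM of Insl3. For every 100 Cyp17a1 counts there were 17.2 to 43.7 Insl3 counts in young dwarf libraries and 3.56 to 13.9 in old dwarf libraries. In normal libraries there were 0.0804 to 15.9 at 6 months and 1.10 to 8.40 at 22 months. The value of 15.9 belongs to normal 6-month replicate 2, where Cyp17a1 itself was at 44 counts, and the other 4 young normal libraries had at most 2.34. Relative to Cyp17a1, the young dwarf libraries were therefore the highest of the 20, and the old dwarf and normal libraries overlapped.

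Cyp17a1 itself did not pass the test between genotypes, with a log2 fold change of 0.50 ± 0.89 at 6 months (edgeR, adjusted p = 0.825) and 2.06 ± 0.93 at 22 months (edgeR, adjusted p = 0.244). Nr5a1 did not pass it either, at 0.17 ± 0.61 (adjusted p = 0.923) and 0.70 ± 0.61 (edgeR, adjusted p = 0.624). Per 100 Nr5a1 counts there were 9.01 to 18.5 Insl3 counts in young dwarf libraries, 0.535 to 5.51 in old dwarf libraries, and 0.0556 to 0.477 in old normal ones. The young normal libraries gave 0.0714 to 8.24, the last again replicate 2. Dwarf 22-month replicate 2, the old dwarf library with the least Insl3, also had the least Nr5a1 of its group (185 CPM) and the least Cyp17a1 (27.8 CPM), Ptgds (482 CPM) and Hsd17b3 (5.73 CPM). Without that library and normal 6-month replicate 2, a choice made after seeing the data, the Insl3 log2 fold change between genotypes was 6.70 at 6 months and 4.87 at 22 months.

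**Figure D3:**
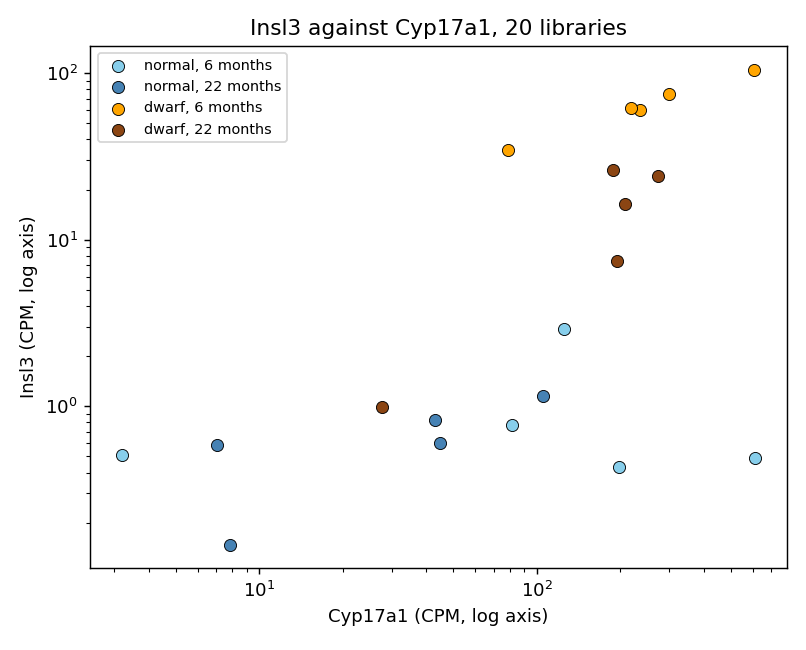
Insl3 against Cyp17a1 in CPM (both axes log), 1 point per library, 20 libraries coloured by group. The 5 young dwarf libraries are the top points over a range of Cyp17a1 from 78.7 to 608 CPM, and the normal libraries stay at or below 2.93 CPM of Insl3 over a range from 3.20 to 610 CPM.

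The 14 theca and androgen genes gave 3 calls at each age, where a call is an adjusted p under 0.05 over all tested genes. Between genotypes at 6 months 3 fell and 0 rose, a share to be read against the 4.57% of all 16099 genes called. At 22 months 2 fell and 1 rose, against 3.81% of all genes. The list's median log2 fold change was -0.50 and -0.45, beside -0.04 for all genes in both. Without the 3 libraries apart 7 of the 14 were called at each age, 1 higher and 6 lower at 6 months, where 12.2% of all genes were called, and 3 higher and 4 lower at 22 months, where 10.8% were. Leaving out normal 6-month replicate 2 alone gave 6 calls at 6 months, where 8.97% of all genes were called. Cyp11a1 and Fdx1, which serve the first step of steroid synthesis in the mitochondrion, fell at both ages, and Scarb1, which takes up cholesterol, fell at 6 months. Cyp11a1, the side-chain cleavage enzyme, fell by 3.95 ± 0.83 on the log2 scale at 6 months (edgeR, adjusted p = 0.0097), and Fdx1, which passes it electrons, fell by 3.50 ± 0.59 (edgeR, adjusted p = 0.00242). With only the 2 young groups fitted, the Cyp11a1 call was lost (edgeR, adjusted p = 0.0709). At 22 months they fell by 3.46 ± 0.81 (adjusted p = 0.0225) and 2.07 ± 0.56 (edgeR, adjusted p = 0.0459). Both calls at 22 months were lost when single libraries were left out, with adjusted p up to 0.0627 without dwarf replicate 5 for Cyp11a1 and up to 0.118 without dwarf replicate 4 for Fdx1. Gli1, the hedgehog effector of theca cells, rose by 1.33 ± 0.29 at 22 months (edgeR, adjusted p = 0.0149).

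Lhcgr, the luteinizing hormone receptor of theca, granulosa and luteal cells, was 11.0 to 28.5 CPM in young dwarf libraries and 0.728 to 304 CPM in young normal ones. Its log2 fold change between genotypes was -2.63 ± 0.82 (edgeR, adjusted p = 0.0763) at 6 months. Of the 10 luteal genes, 5 fell and 0 rose in dwarf mice at 6 months and 4 fell and 0 rose at 22 months, with medians of -2.42 and -2.14, where 4.57% and 3.81% of all genes were called. Lhcgr, Star, Cyp11a1, Hsd3b1 and Scarb1 are on both this list and the theca list, so the 2 lists are not separate results. Without the 3 libraries apart 9 fell at 6 months and 6 at 22 months, and 0 rose, where 12.2% and 10.8% of all genes were called. Leaving out normal 6-month replicate 2 alone gave 9 calls at 6 months, where 8.97% of all genes were called. Leaving out normal 22-month replicate 1 gave 2 at 22 months. Fits without 1 library called 262 to 637 of all genes there, against 614 with all libraries. Akr1c18, which inactivates progesterone, fell by 7.29 ± 1.30 on the log2 scale at 6 months (edgeR, adjusted p = 0.00345), and Sfrp4, a secreted Wnt antagonist, by 6.57 ± 0.92 (edgeR, adjusted p = 0.000656). All 10 had log2 fold changes below 0 at both ages, and their part in the Insl3 values was not tested.

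Oocyte genes and some granulosa cell genes, markers of the follicle, fell with age in both genotypes. In normal mice the Insl3 log2 fold change with age was -0.10. In dwarf mice 9 of 11 oocyte genes fell and 0 rose, and of 12 granulosa cell genes 2 fell and 0 rose, where 11.2% of all genes were called. The oocyte genes summed to 404 to 597 CPM in young dwarf and 60.7 to 96.8 CPM in old dwarf libraries. The granulosa genes summed to 3075 to 5012 and 1406 to 2935 CPM in the same order. Neither sum overlapped between the ages, where 22.1% of all tested genes had separate ranges. Amh, the hormone of small growing follicles, fell by 3.02 ± 0.65 (edgeR, adjusted p = 0.0078), and Esr2, an oestrogen receptor of granulosa cells, by 2.04 ± 0.62 (edgeR, adjusted p = 0.0417). The Esr2 call was lost in 9 of 10 fits without 1 library. Leaving out 1 library gave 5 to 8 oocyte calls with age in dwarf mice. These fits called 802 to 1681 of all genes, against 1802 with all libraries. With age in normal mice 10 oocyte and 2 granulosa genes fell and 0 rose, where 6.75% of all genes were called. The list medians were -4.10 and -1.55 there, against -2.74 and -1.01 in dwarf mice. The granulosa log2 fold changes in dwarf mice ran from -3.02 to 2.18. With only the 2 normal groups fitted, 0 genes were called with age. Between genotypes at 6 months edgeR called 0 oocyte and 0 granulosa genes, with median log2 fold changes of 0.64 and 0.34. Without the 3 libraries apart 1 oocyte gene rose and 1 granulosa gene fell at 6 months, where 12.2% of all genes were called. At 22 months Amh alone was called, where 3.81% of all genes were. It rose by 2.78 ± 0.66 (edgeR, adjusted p = 0.0239), a call lost in 4 of 10 fits without 1 library. Log2 fold changes at 22 months were 0.52 to 2.45 for oocyte genes (median 1.85) and -0.51 to 2.78 for granulosa genes (median 0.70). The oocyte genes summed to 7.39 to 48.5 CPM in old normal libraries, below every old dwarf one. Separate ranges were held by 7.24% of all genes there. The granulosa sums overlapped. Without the 3 libraries apart 5 oocyte and 3 granulosa genes rose there, where 10.8% of all genes were called.

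Within the 10 dwarf libraries r of log2 CPM with Insl3 was 0.516 to 0.868 for the 11 oocyte genes and -0.377 to 0.937 for the 12 granulosa genes, highest for the granulosa factor Foxl2. For the 14 theca genes it was -0.04 to 0.902. The median was 0.696, 0.757 and 0.708 in that order. These libraries share the age contrast, and the part of follicle number in the Insl3 values was not tested.

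Some genes better known from the testis were higher in dwarf ovaries, as Insl3 was. Of 7 Leydig and Sertoli cell genes listed, 5 were tested. Of these 3 rose in dwarf mice at 6 months and 2 at 22 months, and 0 fell, where 4.57% and 3.81% of all genes were called. The list was drawn up with Insl3 and earlier results in mind, so its direction is not independent evidence. Hsd17b3, the Leydig enzyme that makes testosterone from androstenedione, averaged 0.817 ± 1.18 and 0.205 ± 0.0931 CPM in young and old normal mice, and 29.0 ± 16.2 and 35.8 ± 19.0 CPM in young and old dwarf mice (SD, n = 5). It rose by 6.18 ± 0.78 on the log2 scale at 6 months (edgeR, adjusted p = 0.000237) and by 7.28 ± 0.78 at 22 months (edgeR, adjusted p = 6.32e-05), with separate ranges at both ages. Between ages in dwarf mice its log2 fold change was 0.20 (edgeR, adjusted p = 0.827), whereas that of Insl3 was -2.25. Whether the age changes of these genes differ from each other was not tested.

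Aard rose by 2.75 ± 0.42 in dwarf mice at 6 months (edgeR, adjusted p = 0.000963) and fell by 1.99 ± 0.40 with age in dwarf mice (edgeR, adjusted p = 0.0051). The Sertoli genes Dmrt1 and Cst9 were at or below 0.687 CPM in all libraries and were too low to test. Sox9 and Sox8 were tested and did not pass between genotypes, with adjusted p of 0.467 and 0.429 at 6 months and 0.978 and 0.192 at 22 months (edgeR). Within the 10 dwarf libraries Sox9 ran against Insl3, with r = -0.66, as did the 10 oviduct genes, with r of -0.70 to -0.53. In these libraries r of Sox9 with Rxfp1 was 0.923. Which cells the Sox9 values come from was not tested.

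The 5 tested genes whose pattern was most like that of Insl3 were found by Pearson r of log2 CPM over the 20 libraries. They share the libraries, their depth and the genotype contrast with Insl3, so r is a description. Ptgds, a prostaglandin D synthase that is also on the Leydig and Sertoli list, had r = 0.954, the zinc finger factor Klf15 0.953, the sterol 27-hydroxylase Cyp27a1 0.936, the fatty acid binding protein Fabp3 0.922 and the mitochondrial reductase Marc2 0.912. Within the 10 dwarf libraries r was 0.935, 0.894, 0.827, 0.839 and 0.815 in the same order, and within the 10 normal libraries, where Insl3 rests on at most 12 counts, 0.788, 0.705, 0.520, 0.697 and 0.700. All 5 genes were higher in every dwarf library than in every normal library of the same age. They were picked for their likeness to Insl3, so this separation was largely built in and nothing is read from it. Of all tested genes, 5.88% had separate ranges between genotypes at 6 months and 7.24% at 22 months. Ptgds averaged 83.5 ± 109 and 42.1 ± 12.8 CPM in young and old normal mice and 4435 ± 1894 and 1979 ± 1047 CPM in dwarf mice. Klf15 averaged 32.2 ± 7.92 and 26.2 ± 6.93 CPM in normal mice and 103.9 ± 21.5 and 65.7 ± 10.8 CPM in dwarf mice. Hsd17b3 was close to Insl3 over all libraries (r = 0.911) but less so within dwarf libraries (r = 0.539).

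**Figure D4:**
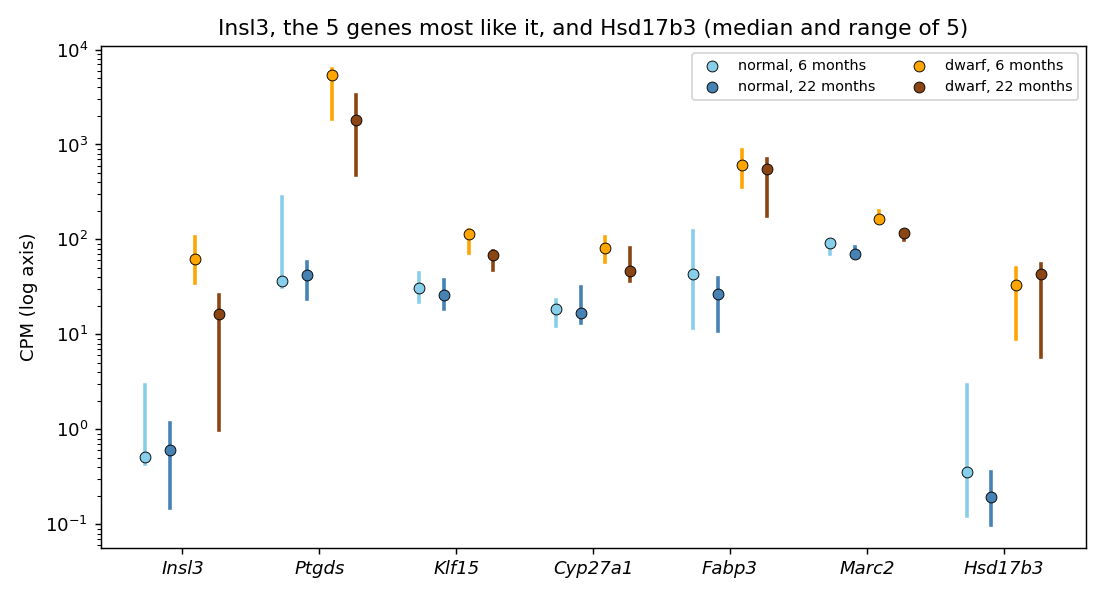
Median (point) and range (line) of CPM over 5 libraries per group on a log axis, for Insl3, the 5 genes most like it and Hsd17b3. Each of the 6 genes beside Insl3 lies higher in dwarf than in normal libraries of the same age, and Hsd17b3 does not fall between the 2 dwarf ages as Insl3 does. The 5 genes were picked for their likeness to Insl3, so their separation by genotype is a description.

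Rxfp2, the receptor of Insl3, was at the limit of detection in every group. Its counts were 2, 4, 0, 1 and 4 in normal mice at 6 months, 9, 1, 2, 2 and 2 in normal mice at 22 months, 5, 8, 6, 0 and 5 in dwarf mice at 6 months, and 1, 2, 3, 3 and 4 in dwarf mice at 22 months. No group stood out from another. The means were 0.168 ± 0.135, 0.234 ± 0.167, 0.235 ± 0.198 and 0.313 ± 0.244 CPM in the same order (SD, n = 5). The count of 0 in dwarf 6-month replicate 4 allows up to 0.211 CPM, and that in normal 6-month replicate 3 up to 2.20 CPM. A difference between groups was not detectable at this depth. Per kilobase of exon, Insl3 in young dwarf libraries averaged 114 CPM over all its exons, or 371 CPM over its own first exon.

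Rxfp1, the relaxin receptor, varied more within groups than between them. In normal mice it was 0.257, 10.4, 2.93, 0.312 and 0.369 CPM at 6 months and 1.28, 0.859, 3.66, 6.94 and 3.94 CPM at 22 months. In dwarf mice it was 1.87, 5.82, 0.0673, 1.55 and 0.111 CPM at 6 months and 2.66, 7.81, 5.73, 2.24 and 5.37 CPM at 22 months. All pairs of groups overlapped, and the highest value of all, 10.4 CPM, was in normal 6-month replicate 2, the library high in oviduct markers. Log2 fold changes were 0.15 ± 1.03 with age in normal mice, 1.32 ± 1.01 with age in dwarf mice, -0.69 ± 1.02 between genotypes at 6 months and 0.48 ± 1.00 at 22 months. Without normal 6-month replicate 2 the first became 2.71 and the third 1.87, so the direction of the third turned on this library.

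The level of Rxfp1 moved with that of oviduct markers. Ovgp1, the oviduct glycoprotein, was 60.7, 4758, 46.1, 9.94 and 15.8 CPM in young normal libraries and 431, 970, 11.6, 492 and 20.0 CPM in young dwarf ones. In young dwarf mice Rxfp1 and Ovgp1 were lowest in the same replicates, 3 and 5, and highest in replicate 2. At 22 months Ovgp1 was 1264 to 3053 CPM in normal and 1465 to 2737 CPM in dwarf libraries. Across the 20 libraries r of log2 CPM was 0.842 with Ovgp1 and 0.874 with Pax8, an oviduct epithelial transcription factor, and 0.964 and 0.966 within the 10 dwarf libraries. The 10 oviduct genes summed to 119 to 7016 CPM in young normal, 2446 to 4274 in old normal, 158 to 1927 in young dwarf and 2466 to 4056 in old dwarf libraries. The part of oviduct tissue in the Rxfp1 values was not tested. The 5 genes most like Rxfp1 were Wfdc15b (r = 0.924), Syndig1 (0.918), Fxyd3 (0.909), Hpgds (0.906) and Clec3b (0.905).

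**Figure D5:**
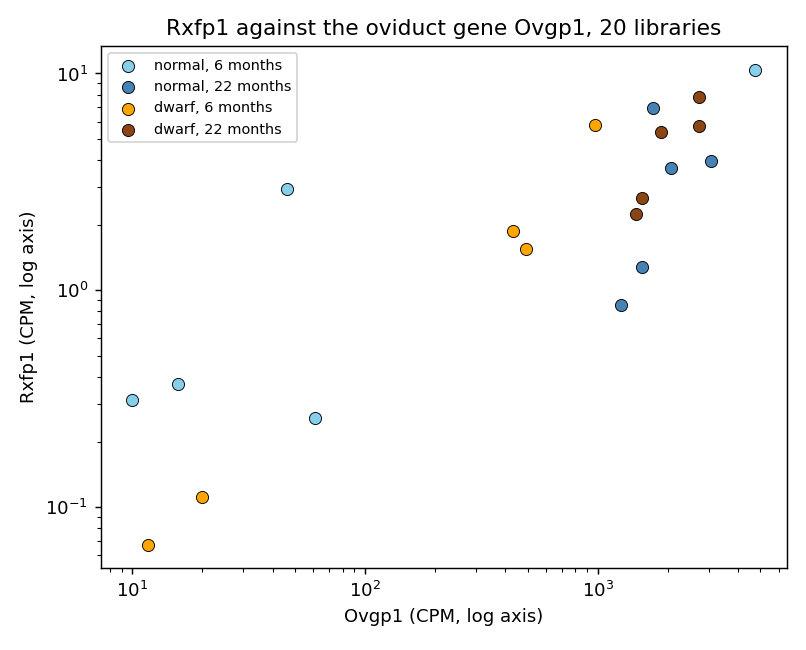
Rxfp1 against the oviduct gene Ovgp1 in CPM (both axes log), 1 point per library, 20 libraries coloured by group. The lowest Rxfp1, 0.0673 CPM, is in a young dwarf library at 11.6 CPM of Ovgp1 and the highest, 10.4 CPM, in the young normal library at 4758 CPM. The order is not strict, since old normal replicate 2 has 1264 CPM of Ovgp1 and 0.859 CPM of Rxfp1.

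The other ligands and receptors of the family were near the floor. Of Rln1, Rln3, Insl5, Insl6, Rxfp3 and Rxfp4, Insl6 alone passed the filter on low counts. Rln1, which encodes mouse relaxin, had 0 counts in all 5 old dwarf libraries. Insl6, an insulin-like peptide of germ cells, averaged 1.33 ± 0.716 and 3.71 ± 2.35 CPM in young and old normal mice and 1.64 ± 0.606 and 2.33 ± 1.31 CPM in dwarf mice. It did not pass the test in any comparison. Its log2 fold change with age in normal mice was 1.60 ± 0.55 (edgeR, adjusted p = 0.0879). Without normal 6-month replicate 2 it became 1.78 and passed (edgeR, adjusted p = 0.037), in a fit that called 26.9% of all genes. Without normal 22-month replicate 3 it was 1.26 (edgeR, adjusted p = 0.234).

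Genes known to act downstream of the receptors gave few calls. Of 25 genes of cyclic AMP signalling, 1 rose and 0 fell with age in normal mice, where 6.75% of all tested genes were called, and 2 rose and 0 fell with age in dwarf mice, where 11.2% were. Between genotypes 1 rose and 1 fell at 6 months, and 1 rose and 0 fell at 22 months, where 4.57% and 3.81% of all genes were. The list's medians lay between -0.09 and -0.07 in the 4 comparisons. Adcy2, an adenylyl cyclase, rose with age by 0.99 ± 0.22 in normal mice (edgeR, adjusted p = 0.015), but the adjusted p was 0.0501 when normal 6-month replicate 4 was left out (edgeR). In dwarf mice it rose by 0.86 ± 0.22 (edgeR, adjusted p = 0.0161). Pde4a, which breaks down cyclic AMP, fell by 0.81 ± 0.18 in dwarf mice at 6 months (edgeR, adjusted p = 0.0139), and Adcy7 rose by 1.39 ± 0.34 (edgeR, adjusted p = 0.0247). Both calls were lost without dwarf 6-month replicate 1, at adjusted p of 0.0539 and 0.0527 (edgeR). Without the 3 libraries apart, 7 of the 25 were called with age in each genotype, 2 higher and 5 lower in normal and 4 higher and 3 lower in dwarf mice, where 29.6% and 28.7% of all genes were called. Between genotypes 4 were called at each age, 1 higher and 3 lower at 6 months and 4 higher at 22 months, where 12.2% and 10.8% of all genes were.

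Of 14 tested matrix and vessel genes known to respond to relaxin, 2 fell and 0 rose in dwarf mice at 6 months, and 1 fell and 0 rose at 22 months (Timp1, lost in 9 of 10 fits without 1 library), with medians of -0.46 and -0.50, where 4.57% and 3.81% of all genes were called. Without normal 6-month replicate 2, 5 were called at 6 months, where 8.97% of all genes were. Without the 3 libraries apart 4 fell at 22 months, where 10.8% of all genes were called. With age in normal mice Vegfa alone was called, where 6.75% of all genes were. It fell by 0.60 ± 0.16 on the log2 scale (edgeR, adjusted p = 0.03). Without normal 6-month replicate 2 there were 6 calls with age in normal mice, where 26.9% of all genes were called. The Vegfa call with age was lost with only the 2 normal groups fitted (edgeR, adjusted p = 0.269). Vegfa, the growth factor of blood vessels, averaged 197.9 ± 66.7 CPM in young normal and 86.1 ± 13.6 CPM in young dwarf libraries, and fell by 1.23 ± 0.16 on the log2 scale (edgeR, adjusted p = 0.00036). Timp1, an inhibitor of matrix proteases, fell by 2.82 ± 0.64 at 6 months (edgeR, adjusted p = 0.0159), a call that was lost without dwarf 6-month replicate 1 (edgeR, adjusted p = 0.0504) and with only the 2 young groups fitted (edgeR, adjusted p = 0.110). With age in dwarf mice 1 of the 14 rose and 1 fell, where 11.2% of all genes were called. Timp3, another inhibitor, rose by 0.80 ± 0.18 (edgeR, adjusted p = 0.00894). Rxfp1 itself did not separate the groups in any of these comparisons.

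Jak3, whose last exon is shared with Insl3, had another pattern. In normal mice Jak3 was 77.3, 58.3, 41.0, 31.1 and 38.8 CPM at 6 months and 49.0, 79.2, 117.6, 69.8 and 34.3 CPM at 22 months. In dwarf mice it was 38.3, 56.2, 69.1, 54.2 and 53.8 CPM at 6 months and 28.1, 38.8, 32.7, 24.9 and 29.4 CPM at 22 months. Old dwarf libraries had the lowest mean, yet their range overlapped those of old normal and of young dwarf libraries through replicate 2. The means were 49.3 ± 18.6, 70.0 ± 31.9, 54.3 ± 10.9 and 30.8 ± 5.29 CPM in the same order (SD, n = 5).

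The log2 fold change of Jak3 between genotypes was 0.10 ± 0.29 at 6 months, where that of Insl3 was 6.68, and -1.29 ± 0.29 at 22 months, where that of Insl3 was 4.52. With age it was 0.49 ± 0.29 in normal and -0.90 ± 0.29 in dwarf mice, a difference in age change of -1.39 ± 0.41. For every 100 Jak3 counts there were 0.302 to 7.14 Insl3 counts in normal libraries, 63.4 to 157 in young dwarf and 2.54 to 88.7 in old dwarf libraries. Per kilobase of all exons Jak3 averaged 12.1, 17.1, 13.3 and 7.54 CPM, and Insl3 1.75, 1.13, 114 and 25.5 CPM, with Insl3 the lower of the pair in 10 of 10 normal and the higher in 9 of 10 dwarf libraries, dwarf 22-month replicate 2 being the exception. Per kilobase of each gene's own exons Insl3 was also the higher in 1 normal library, the shallow 6-month replicate 3 (16.2 against 11.1 CPM). In the difference of the age changes between genotypes, edgeR called 0% of all genes (0 of 16099, with 1126 at an unadjusted p under 0.05, and 17 called by DESeq2). The other genes within 50 kb of Insl3, Unc13a, B3gnt3 and Fcho1, were not called in any comparison.

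The cytokine pathway of Jak3 gave 1 to 4 calls in each comparison. Of 20 tested genes of gamma chain receptors, Jak and Stat factors and their inhibitors, 4 rose and 0 fell with age in normal mice, where 6.75% of all genes were called, and 0 rose and 1 fell with age in dwarf mice, where 11.2% were. Leaving out 1 library gave 1 (without normal 6-month replicate 4) to 5 calls (without replicate 2) with age in normal mice. In these fits 3.26% and 26.9% of all genes were called. Without the 3 libraries apart 3 rose and 1 fell with age in each genotype, beside 29.6% and 28.7% of all genes. Il7r, the interleukin 7 receptor, averaged 0.740 ± 0.499 and 5.29 ± 3.30 CPM in normal mice at 6 and 22 months and rose by 2.60 ± 0.50 (edgeR, adjusted p = 0.00873). Fitted on the 2 normal groups alone, its adjusted p was 0.214 (edgeR). Between genotypes 1 rose and 2 fell at 6 months, and 0 rose and 3 fell at 22 months, beside 4.57% and 3.81% of all genes. Cish, an inhibitor induced by Stat5, averaged 63.6 ± 36.1 CPM in young normal and 8.19 ± 2.01 CPM in young dwarf libraries, and fell by 3.00 ± 0.49 at 6 months (edgeR, adjusted p = 0.00183) and by 2.26 ± 0.49 at 22 months (edgeR, adjusted p = 0.0138). The call at 22 months was lost without the libraries whose titles carry the numbers 21 to 23 (edgeR, adjusted p = 0.0654).

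Markers of the cells that use Jak3 were called in the same comparison. Of 13 tested T and NK cell genes, 7 rose and 0 fell with age in normal mice and 0 were called in the other 3 pairwise comparisons, and of 9 tested B cell genes 7 rose with age in normal mice, where 6.75% of all genes were called. The T and NK count was 2 without normal 6-month replicate 4 and 11 without replicate 2, where 3.26% and 26.9% of all genes were called. The B cell count was 1 without normal 22-month replicate 3, in a fit that called 481 genes, against 1086 with all libraries. Zap70, a T cell kinase, rose by 1.78 ± 0.38 (edgeR, adjusted p = 0.012), and Cd4 by 2.66 ± 0.58 (edgeR, adjusted p = 0.0129). With the 2 normal groups alone both calls were lost, at adjusted p of 0.219 and 0.214 (edgeR). The 18 T and NK genes summed to 15.0 to 24.9 CPM in young normal, 20.4 to 249 in old normal, 20.6 to 34.9 in young dwarf and 33.7 to 56.4 in old dwarf libraries. Both the highest sum and the highest Jak3, 117.6 CPM, were in normal 22-month replicate 3, and without the 3 libraries apart the age change of Jak3 in normal mice was 0.30. With age in dwarf mice the log2 fold changes were -0.82 to 1.16 for the T and NK genes (median 0.33). For the B cell genes they were -0.11 to 2.30 (median 0.73), with 0 called in either list, beside -0.90 for Jak3. Between genotypes 0 B cell genes were called at 6 months and 1, Cd22, fell at 22 months, beside 4.57% and 3.81% of all genes. The part of blood cells in the Jak3 values was not tested. The genes most like Jak3 were Adrbk1 (r = 0.817), Ptpn1 (0.813), Pip5k1c (0.806), Ccm2 (0.776) and Prex1 (0.771), all weaker than the likenesses found for Insl3 and Rxfp1.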

How the data were processed

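Ovaries were flash frozen and polyadenylated RNA was sequenced, per the labels' protocols. The deposited files hold raw counts of reads per gene in HTSeq format. Per the submitters' processing notes, the tools were TopHat2 2.0.10, TopHat and Bowtie2 as well as HTSeq, edgeR and DESeq, on the mm10 build; neither their roles nor the strand setting is stated there. The 5 summary rows (9.84 to 17.6% of counts) were left out. Exon positions came from the deposited annotation.

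Counts were fitted in R 4.3.3 with edgeR 4.0.16 (filterByExpr, minimum count 10, TMM, robust quasi-likelihood test, means of 4 groups over 20 libraries, Benjamini-Hochberg over 16099 genes); DESeq2 1.42.0 was an alternative. The fit was tested on simulated data. Each SE of a log2 fold change was worked back from the test, as its absolute value divided by the square root of the F statistic. On plain CPM the median of all genes between genotypes at 6 months was 0.10, against -0.04 with TMM. Named genes were the members, tested relaxin family genes, up to 3 called genes per list, the 5 most like each member, and neighbours within 50 kb; Cyp17a1, Nr5a1, Lhcgr, Ovgp1, Pax8, Sox8, Sox9, Dmrt1, Cst9, Foxl2 and Scarb1 were named after their values were seen. Members and lists were chosen with earlier results of these data known. Replicates were taken as separate mice, dwarf 22-month replicates 1 and 4 included, and the reported fit has no pairing. Alternatives were DESeq2, RLE scaling, no filter, only the groups compared, a replicate block, and libraries left out.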

Additional observations from a re-analysis of the deposited data

Results flagged for a closer look

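In 3 of the 16 groups of a member's values, the highest library lay far from the other 4; for normally distributed values chance flags about 1 in 20 groups, and whether that rate holds for CPM from counts this low was not tested. Insl3 was 2.93 CPM in normal 6-month replicate 3, against 0.770 CPM in the next library, from 4 counts in the shallowest library. The same library also had the highest Ptgds (279 CPM) and Hsd17b3 (2.93 CPM) of its group. Rxfp1 was 10.4 CPM in normal 6-month replicate 2, against 2.93 CPM in the next, and this library had the highest Ovgp1 of all 20. Rxfp2 was 0.741 CPM in dwarf 22-month replicate 5, against 0.269 CPM in the next, from 4 counts.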

How the results depend on the processing

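Insl3 kept its direction between genotypes and with age in dwarf mice under every alternative run. Leaving out 1 library gave log2 fold changes of 6.46 to 6.99 between genotypes at 6 months, 4.22 to 4.84 at 22 months and -2.53 to -1.95 with age in dwarf mice. As a difference of mean log2(CPM + 0.5) the genotype values were 5.59 and 3.24; this measure differs from the fit in its added constant, its scaling and its averaging of logs. Rxfp1 without the 3 libraries apart was 3.28 with age in normal mice, 2.51 between genotypes at 6 months and -1.93 for the difference of age changes; without the 2 libraries lowest in Nr5a1 these were 2.70, 1.86 and -1.62. Leaving out 1 library gave -0.28 to 2.71, -1.72 to 1.87 and -1.37 to 2.23. The Jak3 difference of age changes was -0.92 without title numbers 21 to 23.

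Counts of genes called moved far more. In the order age in normal, age in dwarf, genotype at 6 and at 22 months they were 1086, 1802, 735 and 614. DESeq2 gave 1766, 2747, 1414 and 1201, with 17 for the difference of age changes. With only the groups compared, edgeR gave 0 (1903 at an unadjusted p under 0.05), 5169 and 244 for the first 3. Without the 3 libraries apart the counts were 4848, 4697, 1990 and 1762, with 202 for the difference. Without title numbers 21 to 23 the first was 188 and the last 323. Without the 2 libraries lowest in Nr5a1 they were 4318, 1410 and 1167 (all but age in dwarf mice), with 17 for the difference. Summing dwarf 22-month replicates 1 and 4 gave 1107 with age in dwarf mice and 272 between genotypes at 22 months. Leaving out 1 library gave 481 to 4384, 802 to 1681, 369 to 1459, 262 to 637 and, for the difference, 0 to 1. With the replicate number as a block the counts were 1121, 1904, 672, 560 and 0. Same-numbered libraries had correlations of -0.215 to 0.719 with a median of 0.0014, and 10 of 30 pairs were over 0.1. These values do not settle whether the numbers pair any libraries, and the reported fit does not pair them. The causes were not tested.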
